A study of Homo sapiens with 29 samples.

Results

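The muscle progenitor transcription factors PAX3, PAX7, SIX4, EYA1, EYA2, EYA4, MSC, TWIST1 and SNAI2 were followed in human myoblasts after knockdown of the zinc finger factor ZNF148. The 9 genes were taken as a fixed list of names and matched to the arrays through the RefSeq accession of each probe, which gave 13 probes of the 58201 on the array and 9 of the 22439 genes named. The names were chosen for their roles and not by a level, although results of these data were known when they were chosen. PAX3, PAX7, EYA1 and TWIST1 each had 2 probes and the other members had 1. EYA2 was not well above background on any of the 29 arrays, so 8 of the 9 members were tested.

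LHCN-M2 cells are a human myoblast line immortalized by telomerase and CDK4. They received 20 nM of siRNA against ZNF148 (siZNF148) or of a nontargeting siRNA (siControl). Total RNA was hybridized to one-colour Agilent expression arrays. There were 10 groups, since each siRNA was sampled at 24, 48 and 96 h in growth media, and after 48 or 96 h in differentiation media. Each group had 3 arrays, which the labels call biological replicates, except siControl at 96 h in growth media, which had 2. Cells were subconfluent at 24 h and confluent at the later times in growth media. Per the methods, growth media was exchanged for differentiation media 2 days after the siRNA was given, and the hours of the 2 kinds of media may therefore not count from the same moment. All cells came from 1 immortalized line and all received an siRNA.

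PAX3 and PAX7 are paired-box factors that specify the muscle lineage, PAX3 in the dermomyotome and its migrating progenitors and PAX7 in satellite cells, the stem cells of adult muscle. Homeodomain factors such as SIX4 bind DNA and EYA proteins act as their coactivators, and together they stand upstream of the MYOD family. MSC (musculin) and TWIST1 are basic helix-loop-helix factors that can pair with E proteins and hold back MYOD, and SNAI2 (Slug) is a zinc finger repressor of the Snail family that binds E-boxes.

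Values are log2 of the background-subtracted signal after quantile normalization over all arrays. The authors' own matrix differed from them by at most 0.0174 for any member on any array. ZNF148 itself was lower in siZNF148 than in siControl by 1.53 to 2.74 on the log2 scale, without overlap between the arrays in any of the 5 pairs of groups. All 6 myoblast markers (MYF5, MYOD1, DES, NCAM1, CDH15 and ITGA7) were detected on every array. One library stood apart: siControl replicate 1 at 48 h in growth media, in a group whose summed level of 5 differentiated-muscle markers (MYOG, MYH3, CKM, ACTA1 and TNNT1) ran from 12.73 to 19.05 on the log2 scale. For the brightest probes of the members, called changes that use it are given with and without it. The 6 arrays at 24 h were on 1 slide read in 1 scan and the others on 3 other slides read in another scan, so slide, scan, confluence and time cannot be told apart between 24 h and the later levels. No slide held siControl arrays of both media at 96 h. In these bulk samples, fewer cells of a type and less RNA per cell cannot be told apart.

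The first question was which progenitor factors differed between siZNF148 and siControl at each time and in each media. A gene was called at an adjusted p under 0.05 and a change over 2-fold, with the adjustment over all probes tested, and was given by its brightest tested probe. At 24 h in growth media, 1 of the 8 tested members was called, MSC, which rose, and none fell, where 2.46% of the 18398 genes tested rose and 3.08% fell. By 48 h in growth media, MSC and SIX4 rose and TWIST1 and SNAI2 fell, beside 11.7% and 12.2% of all genes. By 96 h in growth media, MSC rose and PAX3, TWIST1 and SNAI2 fell, with 12.3% and 12.4% for all genes. After 48 h in differentiation media, no member rose and PAX3, TWIST1 and SNAI2 fell, beside 15.1% and 17.3% of all genes. After 96 h in differentiation media, MSC rose and PAX3, TWIST1 and SNAI2 fell, with 10.5% and 12.8% for all genes. The median change over the 8 members lay between -0.27 and 0.20 in the 5 comparisons and that over all genes between -0.06 and -0.0007, with members on both sides.

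**Figure D1:**
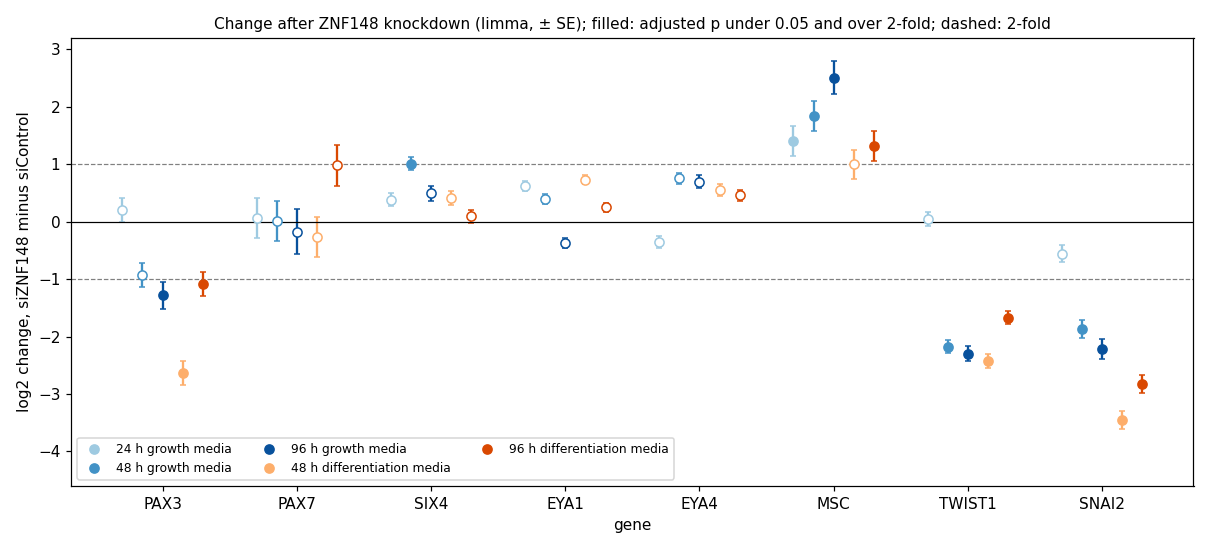
Log2 change of each tested member between siZNF148 and siControl in the 5 pairs of groups, with the standard error of the limma fit. Filled points passed both thresholds, and the dashed lines mark 2-fold. TWIST1 and SNAI2 lie below the lower line in all comparisons after 24 h, and MSC lies above the upper line in 4 of the 5.

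Each member had its own order of levels over the 10 groups. TWIST1, SNAI2 and PAX3 had their highest mean in a siControl group and their lowest in a siZNF148 group, and SIX4 and EYA4 had their highest in siZNF148 at 48 h in differentiation media. The highest mean of MSC was in siZNF148 at 96 h in growth media. Of the 9 neighbouring pairs of groups in each order, 5 overlapped for MSC and TWIST1, 6 for PAX3, 7 for SIX4, EYA1, EYA4 and SNAI2, and all 9 for PAX7, so the steps between neighbours were mostly within the spread of the arrays.

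**Figure D2:**
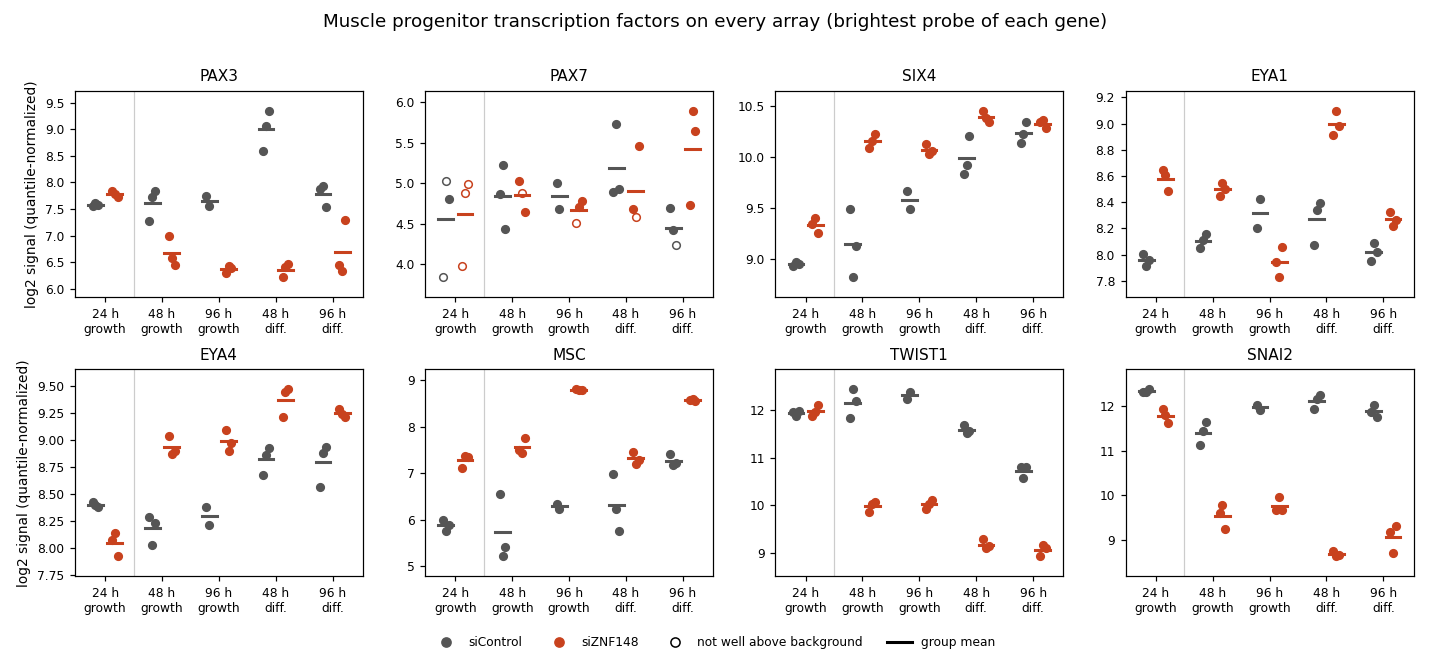
Log2 signal of the brightest probe of each tested member on each of the 29 arrays. Short lines are group means, open points were not well above background, and the grey line parts the 24 h arrays from the others. TWIST1 and SNAI2 part by siRNA at all times after 24 h, PAX3 is highest in siControl at 48 h in differentiation media, and the points of PAX7 overlap nearly everywhere.

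Sequences upstream of the start site were at hand for PAX3, which fell, and for SIX4 and EYA4, which lay higher in siZNF148 at 48 h and 96 h in growth media, so that a reader can see what stands before genes that differed in opposite directions. They come from RefSeq (GRCh38.p14) and hold the 250 bases before the start, 5′ to 3′ on the strand of the gene. Promoters were found for 4 of the 9 members, PAX7 being the fourth, and EYA1, EYA2, MSC, TWIST1 and SNAI2 had none. Capitals mark, on either strand, an E-box (CANNTG), a GC box (GGGCGG), a C-rich box (CCTCCC) or a CCAAT box.
PAX3 (chr2:222298999-222299248, minus strand): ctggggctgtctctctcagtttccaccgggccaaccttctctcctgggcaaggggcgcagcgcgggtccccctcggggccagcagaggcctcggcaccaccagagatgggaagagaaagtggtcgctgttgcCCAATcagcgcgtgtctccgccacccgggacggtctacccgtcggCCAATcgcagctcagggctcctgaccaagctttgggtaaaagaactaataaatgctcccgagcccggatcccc
SIX4 (chr14:60724352-60724601, minus strand): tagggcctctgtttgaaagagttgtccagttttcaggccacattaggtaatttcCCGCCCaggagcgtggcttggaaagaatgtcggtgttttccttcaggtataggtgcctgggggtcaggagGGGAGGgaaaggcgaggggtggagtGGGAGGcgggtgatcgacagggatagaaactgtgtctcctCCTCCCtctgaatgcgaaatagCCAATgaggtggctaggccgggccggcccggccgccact
EYA4 (chr6:133241107-133241356, plus strand): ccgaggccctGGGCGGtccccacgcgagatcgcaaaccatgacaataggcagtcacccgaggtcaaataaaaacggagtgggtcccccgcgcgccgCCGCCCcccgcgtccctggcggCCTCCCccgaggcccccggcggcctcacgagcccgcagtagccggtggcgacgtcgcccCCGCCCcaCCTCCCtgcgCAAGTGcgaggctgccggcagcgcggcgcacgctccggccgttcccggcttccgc
The PAX3 window held 2 CCAAT boxes and none of the other marked motifs. The SIX4 window held 1 GC box, 3 C-rich boxes and 1 CCAAT box, and the EYA4 window held 1 E-box, 3 GC boxes and 2 C-rich boxes. None of the matches overlapped another. Over 27305 promoters of the same length, 62.2% held an E-box, 42.3% a GC box, 44.5% a C-rich box and 33% a CCAAT box. Neither the Snail-type E-box CAGGTG (17.5% of promoters) nor the MEF3 site TCAGGTT bound by SIX4 and its relatives (2.81%) occurred in these letters in the 3 windows. A match describes letters only, and binding was not measured.

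PAX3 fell after 24 h in siZNF148, most in differentiation media at 48 h. At that time siControl had 8.60, 9.05 and 9.35 and siZNF148 had 6.22, 6.40 and 6.46. The 3 siControl arrays were the highest of all 29 and lay far from the siZNF148 arrays. The difference was -2.64 ± 0.21 (SE; 6.23-fold lower, adjusted p = 4.99e-10). In growth media at 96 h siControl had 7.56 and 7.75 and siZNF148 had 6.31, 6.40 and 6.42, a difference of -1.28 ± 0.24 (adjusted p = 0.000111). The siRNA groups did not overlap there either, although with normexp background correction the change was -0.98, just short of 2-fold.

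At 96 h in differentiation media siZNF148 replicate 3 lay apart from its group. PAX3 there had 7.54, 7.88 and 7.93 in siControl and 6.34, 6.45 and 7.29 in siZNF148, so the groups did not overlap but came close. The change was -1.09 ± 0.21 (2.13-fold lower, adjusted p = 0.000175), near the fold threshold. It was no longer called without siZNF148 replicate 1 (-0.97) or replicate 2 (-0.91), and was -1.39 without replicate 3. It also missed 2-fold with 75th percentile scaling (-0.99), normexp (-0.84), array weights (-0.89) and the mean over both probes (-0.97), and the methods' t-test gave an adjusted p of 0.0645. In growth media at 48 h siControl had 7.28, 7.73 and 7.84 and siZNF148 had 6.45, 6.58 and 7.00, and the difference of -0.94 ± 0.21 (adjusted p = 0.000811) missed 2-fold. Without siControl replicate 1, the library that stood apart, it was -1.10 (adjusted p = 0.000336) and was called. At 24 h the levels were 7.55 to 7.62 in siControl and 7.72 to 7.83 in siZNF148, a difference of 0.20 with an adjusted p of 0.603.

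Both PAX3 probes were lower in siZNF148 at all times after 24 h. The second probe, A_24_P362595, carries another RefSeq transcript than the brightest, A_23_P209499. Its change was -1.19 at 48 h and -1.48 at 96 h in growth media and -1.17 at 48 h in differentiation media, each called. It was below background at 96 h in differentiation media on all siZNF148 arrays and at least 1.36-fold lower, where the bound takes, for each dim array, the faintest signal that the array detected. The probes differed in size and between media also in direction. The knockdown difference at 48 h in differentiation media was -2.64 on the brightest probe, and between media in siControl the brightest differed by 1.39 at 48 h and 0.13 at 96 h where the second differed by 0.54 and -0.68.

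**Figure D3:**
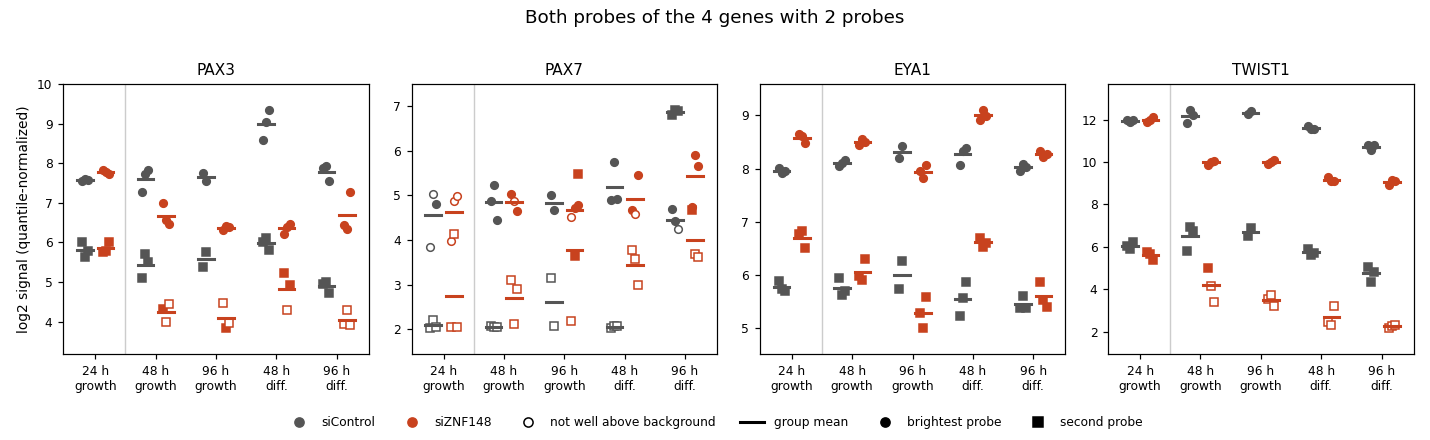
Log2 signal on each array of both probes of PAX3, PAX7, EYA1 and TWIST1, with circles for the brightest probe and squares for the second. Open symbols were not well above background. The second PAX7 probe is at 6.80 to 6.91 in siControl at 96 h in differentiation media and low in nearly all other groups, which its brightest probe does not show.

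PAX7 was dim throughout. Its brightest probe was well above background on 20 of 29 arrays, with a lowest value of 3.84, a median of 4.80 and a highest of 5.90, and it was not called in any comparison. Its arrays at 96 h in differentiation media had 4.24, 4.42 and 4.69 in siControl and 4.73, 5.65 and 5.90 in siZNF148, a difference of 0.98 ± 0.35 (adjusted p = 0.0248) that missed 2-fold. The second probe, A_33_P3291579, which carries another PAX7 transcript, behaved otherwise. It had 6.80, 6.91 and 6.87 in siControl at 96 h in differentiation media and was well above background on only 3 other arrays. Those 3 were siZNF148 replicates 2 (3.64) and 3 (5.47) at 96 h in growth media and replicate 1 (4.66) at 96 h in differentiation media. In siControl at 96 h it was at least 6.71-fold higher in differentiation than in growth media (adjusted p = 2.28e-05). Against siControl at 96 h in differentiation media, siZNF148 differed by -2.87 ± 0.59 (adjusted p = 0.000299). The probes of PAX7 thus differed in direction at that time, and which transcript the signal came from was not tested.

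SIX4, the homeodomain member, rose at 48 h in growth media. The siControl arrays had 9.49, 8.82 and 9.13 and the siZNF148 arrays 10.09, 10.16 and 10.23. Every siZNF148 array was above every siControl array, and siControl replicate 1 was the highest of its group. The difference was 1.01 ± 0.12 (2.02-fold, adjusted p = 2.57e-07), just past the fold threshold. It was 1.18 without siControl replicate 1, and fell short of 2-fold without siControl replicate 2 (0.85) or siZNF148 replicate 3 (0.98), with scaling to the 75th percentile (0.98) and with normexp (0.99). In the other comparisons SIX4 was higher in siZNF148 by 0.38 at 24 h, 0.49 at 96 h in growth media, 0.41 at 48 h and 0.09 at 96 h in differentiation media. The first 3 of these had an adjusted p of 0.0198, 0.00363 and 0.00509, and the last of 0.569.

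The EYA coactivators stayed within 2-fold on their brightest probes. EYA4 had 8.03, 8.23 and 8.29 in siControl and 8.87, 8.90 and 9.04 in siZNF148 at 48 h in growth media, without overlap. That difference was 0.75 ± 0.10 (1.69-fold, adjusted p = 1.92e-06). It was 0.69 at 96 h in growth media, 0.55 at 48 h and 0.45 at 96 h in differentiation media, again without overlap in each. At 24 h the order was opposite: siControl had 8.38, 8.40 and 8.43, siZNF148 had 7.93, 8.08 and 8.14, and the difference was -0.35 ± 0.10 (adjusted p = 0.0126).

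EYA1 was also above its control at 24 h, 48 h and in differentiation media but below it at 96 h in growth media. At 24 h siControl had 7.91, 7.96 and 8.01 and siZNF148 had 8.48, 8.61 and 8.65, a difference of 0.62 ± 0.08 (adjusted p = 8.42e-06). By 96 h in growth media siControl had 8.20 and 8.43 and siZNF148 had 7.83, 7.95 and 8.06, a difference of -0.37 ± 0.09 (adjusted p = 0.0024). The arrays did not overlap in either case. Its highest group was siZNF148 at 48 h in differentiation media, where the difference was 0.73 on the brightest probe and 1.06 (adjusted p = 2.35e-05) on the second, A_33_P3216763, which was called there. EYA2 had a median of 2.02 over the 29 arrays and a highest value of 3.34, none of it well above background.

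MSC, the musculin repressor, rose at all times in growth media and at 96 h in differentiation media. It was the only member called at 24 h, where siControl had 5.75, 5.88 and 6.00 and siZNF148 had 7.11, 7.35 and 7.37. The groups lay well apart, and the change was 1.40 ± 0.26 (2.64-fold, adjusted p = 0.000334). With normexp it was 0.84, below 2-fold. By 96 h in growth media siControl had 6.22 and 6.34 and siZNF148 had 8.78, 8.78 and 8.80, the highest values of MSC on any array. That change was 2.51 ± 0.29 (5.69-fold, adjusted p = 3.18e-07).

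At 48 h the siControl arrays of MSC were spread widely in both media. In growth media they had 6.55, 5.21 and 5.41, replicate 1 being the highest, and siZNF148 had 7.50, 7.43 and 7.76. The change was 1.84 ± 0.26 (3.57-fold, adjusted p = 4.11e-06), and 2.25 without siControl replicate 1. In differentiation media siControl had 6.98, 6.23 and 5.75 and siZNF148 had 7.46, 7.19 and 7.29. The difference of 0.99 ± 0.26 (adjusted p = 0.00248) was 1.99-fold and so missed the threshold, without overlap. After 96 h in differentiation media siControl had 7.17, 7.21 and 7.40 and siZNF148 had 8.56, 8.58 and 8.60, a change of 1.32 ± 0.26 (adjusted p = 0.000214).

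TWIST1, which can block MYOD by taking up its E protein partners, fell in siZNF148 at all times after 24 h. At 24 h the groups overlapped, with 11.88 to 11.99 in siControl and 11.88 to 12.11 in siZNF148, and the difference was 0.04 ± 0.12 (adjusted p = 0.886). By 48 h in growth media siControl had 11.83, 12.44 and 12.19 and siZNF148 had 9.85, 10.02 and 10.06. The change was -2.18 ± 0.12 (4.53-fold lower, adjusted p = 2.62e-12), and -2.34 without siControl replicate 1. In growth media at 96 h siControl had 12.24 and 12.39 and siZNF148 had 9.93, 10.02 and 10.11, a change of -2.30 ± 0.13 (4.92-fold lower, adjusted p = 7.52e-12). None of these later arrays overlapped between siRNAs.

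In differentiation media TWIST1 was lower with either siRNA. At 48 h siControl had 11.68, 11.53 and 11.57 and siZNF148 had 9.28, 9.09 and 9.13, a change of -2.43 ± 0.12 (5.38-fold lower, adjusted p = 1.32e-13). At 96 h siControl had 10.81, 10.57 and 10.80 and siZNF148 had 8.93, 9.15 and 9.09, a change of -1.67 ± 0.12 (3.19-fold lower, adjusted p = 1.15e-10). The lowest siControl array there, 10.57, was still above the highest siZNF148 array. Within single slides the change ran from -2.38 to -1.81 at 48 h in growth media and from -2.60 to -2.28 at 48 h in differentiation media.

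The second TWIST1 probe, A_23_P71073, fell at the same 4 times. It was below background on all siZNF148 arrays at 96 h in growth media, where siControl had 6.52 and 6.90, and was at least 7.26-fold lower. In differentiation media its bounds were 3.72-fold (48 h) and 1.23-fold (96 h). At 48 h in growth media, with 1 of 3 siZNF148 arrays well above background, it differed by -2.30 ± 0.32 (adjusted p = 3.16e-06).

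On the brightest probes, SNAI2 had the largest change of any member between siZNF148 and siControl. At 48 h in differentiation media siControl had 11.93, 12.17 and 12.26 and siZNF148 had 8.74, 8.63 and 8.65. The change was -3.45 ± 0.16 (10.9-fold lower, adjusted p = 5.51e-14). After 96 h in differentiation media siControl had 11.87, 12.03 and 11.76 and siZNF148 had 9.16, 8.71 and 9.30, a change of -2.83 ± 0.16 (7.12-fold lower, adjusted p = 3.29e-12). The lowest siControl array stood far above the highest siZNF148 array at both times.

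SNAI2 also fell in growth media. At 48 h siControl had 11.12, 11.45 and 11.64 and siZNF148 had 9.61, 9.79 and 9.24, a change of -1.86 ± 0.16 (3.63-fold lower, adjusted p = 3.03e-09), and -2.00 without siControl replicate 1. At 96 h siControl had 12.03 and 11.93 and siZNF148 had 9.67, 9.97 and 9.67, a change of -2.21 ± 0.17 (4.63-fold lower, adjusted p = 1.22e-09). Arrays did not overlap at either time. At 24 h the arrays did not overlap either, with 12.33 to 12.38 in siControl and 11.63 to 11.94 in siZNF148, but the difference of -0.56 ± 0.16 (adjusted p = 0.0116) was 1.47-fold. Within single slides the change ran from -2.22 to -1.33 at 48 h in growth media and from -3.52 to -3.30 at 48 h in differentiation media.

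Fibroblast and endothelial markers, summed per list, were lower in siZNF148 at all times after 24 h, when TWIST1 and SNAI2 were lower. Lists of some other cell types moved otherwise. The 4 endothelial markers (PECAM1, CDH5, VWF and KDR) overlapped between siRNAs at 24 h. Their summed level was 9.12 to 9.58 in siControl and 7.50 to 7.75 in siZNF148 at 48 h in growth media. The fibroblast sum was lower already at 24 h, where TWIST1 overlapped between siRNAs and SNAI2 was lower by less than 2-fold (-0.56). All 5 fibroblast markers (PDGFRA, THY1, DCN, LUM and COL3A1) were detected on every array. Their summed level was 16.06 to 16.11 in siControl and 15.55 to 15.63 in siZNF148 at 24 h, 17.09 to 17.27 against 14.70 to 14.92 at 96 h in growth media, and 17.04 to 17.11 against 14.82 to 14.96 at 48 h in differentiation media. It was lower in siZNF148 in all 5 pairs of groups. In growth media at 96 h THY1 had a mean of 9.09 in siZNF148 and 13.86 in siControl, and DCN of 14.24 and 16.94, while COL3A1 had 12.41 and 11.98. The summed differentiated-muscle level was higher in siZNF148, 20.01 to 20.06 against 15.10 to 15.14 at 96 h in growth media. Of 4 neural crest and melanocyte markers, lineages that also use PAX3, SNAI2 and TWIST1, only MITF was detected on all arrays, and SOX10, TYR and FOXD3 were not well above background on any siControl array. The summed level of that list was 9.16 to 9.29 in siControl and 11.91 to 12.06 in siZNF148 at 96 h in differentiation media. In that siZNF148 group 2 of the 4 markers were detected on no array, so the sum does not stand for the list. The summed level of 3 smooth muscle markers (MYH11, CNN1 and ACTG2) was lower in siZNF148 in growth media, with 12.58 to 13.11 against 8.75 to 8.84 at 48 h. It was higher in differentiation media, with 7.72 to 8.06 against 10.64 to 10.81 at 48 h and 6.66 to 7.89 against 12.38 to 12.62 at 96 h. The part of these cell types in the results was not tested.

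A further question was how the members responded to differentiation media. In siControl at 48 h only PAX3 was called among the 8, and it rose by 1.39 ± 0.21 (2.61-fold, adjusted p = 1.3e-05), where 16% of all genes were called in either direction. Without siControl replicate 1 in growth media the rise of PAX3 was 1.22, and SIX4 (1.01) and MSC (1.01) were also called. In siControl at 96 h only TWIST1 was called, which changed by -1.59 ± 0.13 (3.01-fold, adjusted p = 3.76e-09) beside 15.1% of all genes. MSC differed there by 0.98 (adjusted p = 0.0113), just short of 2-fold. No slide held siControl arrays of both media at 96 h, so the media could not be compared within a slide there. With the slide block TWIST1 kept its call, but the slide term then rests on other groups, so it cannot part slide from media within siControl. The hours of both media may also not count from the same moment. In siZNF148 none of the 8 members was called between media at 48 h (3.97% of all genes) or at 96 h (6.39%). By limma, 4 members at 48 h and 3 at 96 h passed the adjusted p without the fold threshold, beside 19.1% and 28.5% of all genes, among them TWIST1 with -0.81 and -0.97, and SNAI2 with -0.87 and -0.71. At an unadjusted p under 0.05, without the fold threshold, there were 4 and 6 members, beside 31.5% and 39.4% of all genes.

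The knockdown effects were then compared with each other as differences of differences within the limma fit. The effect at 48 h less that at 24 h in growth media was called for 4 of the 8 members, beside 20.6% of all genes: TWIST1 (-2.22 ± 0.16), SNAI2 (-1.31 ± 0.22), PAX3 (-1.13 ± 0.30) and EYA4 (1.11 ± 0.14). At 96 h less 24 h it was called for 5, beside 22.9%: TWIST1 (-2.34), SNAI2 (-1.66), PAX3 (-1.48), MSC (1.11) and EYA4 (1.04). The call of MSC was lost without any of 5 arrays, replicate 1 of either siRNA at 24 h, either siControl array at 96 h or siZNF148 replicate 1 at 96 h (adjusted p up to 0.0908), and with 75th percentile scaling (0.998), normexp (0.92) or the slide block (1.03, adjusted p = 0.0653). That of EYA4 was lost with normexp (0.94) and without siZNF148 replicate 3 at 24 h, siControl replicate 2 at 96 h or siZNF148 replicate 1 at 96 h (0.96 to 0.99). Without siControl replicate 1 at 48 h, the effects at 48 h less 24 h were -2.38 for TWIST1, -1.45 for SNAI2, -1.30 for PAX3 and 1.16 for EYA4. The effects at 24 h and later were measured on different slides and at different confluence, which cannot be told apart from time. The effect in differentiation media less that in growth media at 48 h was called for PAX3 (-1.70 ± 0.30, adjusted p = 0.000104) and SNAI2 (-1.59 ± 0.22, adjusted p = 6.84e-06), beside 17.2% of all genes. Of PAX3 the second probe gave 0.03 for the same difference. Without siControl replicate 1 in growth media PAX3 had -1.53 and SNAI2 -1.44, and MSC was called too (-1.25, adjusted p = 0.0015). At 96 h it was called for MSC alone (-1.19 ± 0.39, adjusted p = 0.0298), beside 12.5%. That of MSC lost its call without any of 5 of the 11 arrays of the comparison, siControl replicate 1 or 2 or siZNF148 replicate 1 in growth media, and siControl replicate 1 or siZNF148 replicate 3 in differentiation media (-1.25 to -1.12, adjusted p up to 0.0936), and with normexp (-0.69) or the slide block (-1.07, adjusted p = 0.0866).

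Relatives of the members were read from 4 lists fixed by name. Among 15 other genes of the PAX, SIX4, EYA and DACH families, 9 had a tested probe, and 4 were called in some knockdown comparison. The share of all genes called in some knockdown comparison was not computed, so these 4 cannot be set against all genes. SIX2, a homeodomain factor known from kidney progenitors, had 8.52 to 8.57 in siControl and 9.74 to 9.88 in siZNF148 at 24 h, and rose by 1.26 there, by 1.63 at 96 h in growth media and by 1.60 at 96 h in differentiation media. SIX5 and PAX8 fell in differentiation media. SIX5 had 13.96, 13.97 and 13.80 in siControl at 48 h in differentiation media against 12.01, 11.78 and 11.82 in siZNF148, a change of -2.04 ± 0.07, and rose between media in siControl by 1.40. PAX8 changed by -2.55 at that time and by -1.39 at 96 h, and between media in siControl by 1.06 (0.99 and no longer called without siControl replicate 1 in growth media). PAX6, not well above background in siControl, was at least 1.29-fold higher in siZNF148 at 48 h in differentiation media. In the 5 knockdown comparisons 1, 0, 1, 1 and 1 genes of this list rose and 0, 0, 0, 2 and 2 fell. The order is 24, 48 and 96 h in growth media, then 48 and 96 h in differentiation media. Of all genes, 2.46%, 11.7%, 12.3%, 15.1% and 10.5% rose and 3.08%, 12.2%, 12.4%, 17.3% and 12.8% fell in that order. The list's median change ran from -0.26 to 0.25.

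All 10 Twist, Snail and partner genes had a tested probe. TWIST2, the paralog of TWIST1, fell with it at the 4 later times, with changes of -2.00, -1.87, -1.82 and -2.30 in the same order, and had 11.11 to 11.17 and 11.16 to 11.21 at 24 h. SNAI1, the Snail repressor closest to SNAI2, moved the other way in growth media: at 96 h it had 5.35 and 5.85 in siControl and 7.60, 7.72 and 7.67 in siZNF148, and it rose by 2.06 there and by 2.42 at 48 h in differentiation media. At 96 h in differentiation media its order was opposite, with 10.12, 10.34 and 10.29 in siControl and 6.94, 7.36 and 7.19 in siZNF148, a change of -3.09 ± 0.54 (adjusted p = 5.84e-05). At 48 h in growth media only replicate 1 of siControl was well above background (7.29), and the rise of SNAI1 was 3.93 with it. Without it no siControl array of that group was well above background, so no size is given. SNAI3 rose at 96 h in growth media by 2.83, on siZNF148 arrays of 8.19, 4.68 and 4.67, by 2.08 at 48 h in differentiation media and at least 2.29-fold at 96 h. ZEB2, an E-box repressor, rose by 1.22 at 48 h in growth media and 1.01 at 48 h in differentiation media. The E proteins TCF4 and TCF12 fell at 96 h in differentiation media, with changes of -1.47 and -1.46. Over this list 0, 2, 2, 3 and 1 genes rose and 0, 1, 1, 1 and 4 fell. Of all genes, 2.46% to 15.1% rose and 3.08% to 17.3% fell in these comparisons. The list's median change ran from -0.50 to 0.48. Without siControl replicate 1, 3 rose at 48 h in growth media, with TCF12 (1.06) added, and TWIST2 differed by -2.16 and ZEB2 by 1.40.

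**Figure D4:**
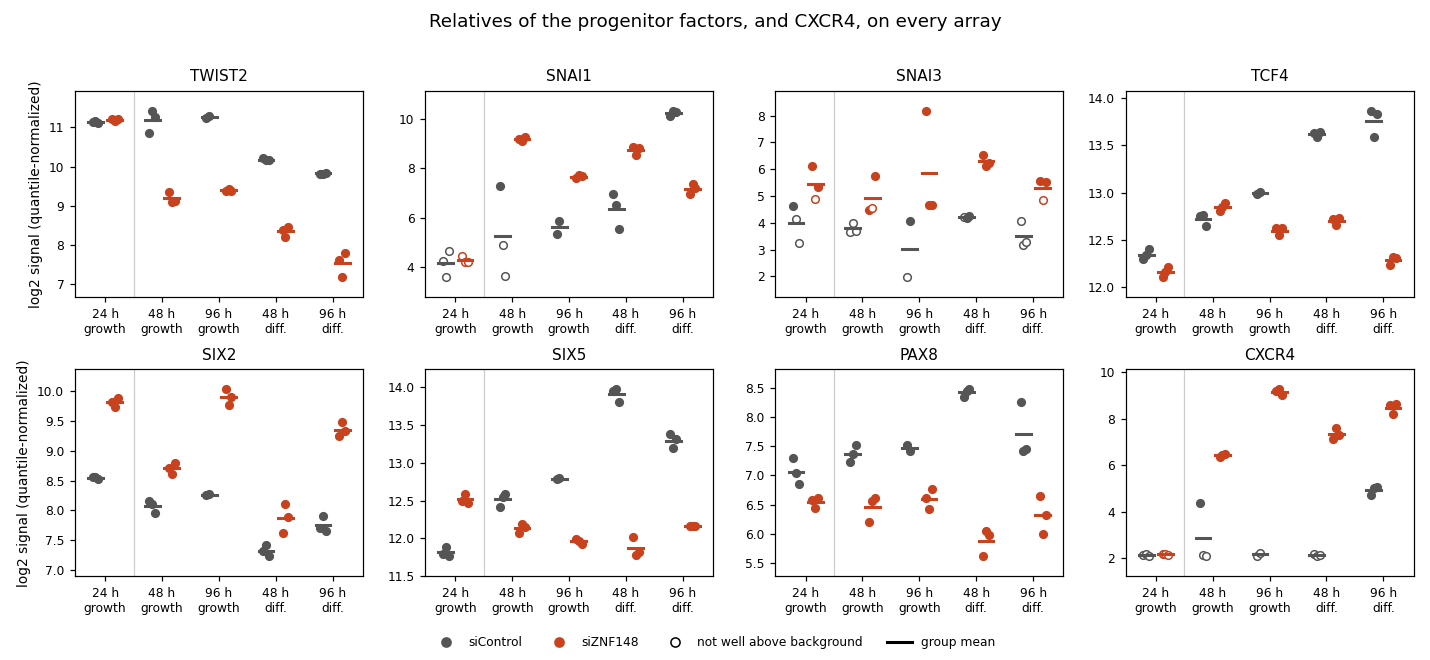
Log2 signal on each array of 7 relatives of the progenitor factors and of CXCR4, drawn as for the members. TWIST2 parts by siRNA after 24 h, SNAI1 overlaps at 24 h, is higher in siZNF148 at 48 h and at 96 h in growth media, and is lower at 96 h in differentiation media, and CXCR4 is near the bottom of the scale on all siControl arrays but 4.

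Of 13 dermomyotome and migrating progenitor genes, 12 were tested. In the 5 knockdown comparisons 0, 3, 3, 3 and 4 rose and 0, 2, 2, 3 and 1 fell, in the order given above. Of all genes, 2.46% to 15.1% rose and 3.08% to 17.3% fell in these comparisons. CXCR4, the chemokine receptor that guides migrating progenitors, was not well above background on any siControl array at 96 h in growth media and had 9.21, 9.27 and 9.01 in siZNF148, at least 33.1-fold higher (adjusted p = 7.7e-12). MET, the receptor for hepatocyte growth factor on the same cells, fell at the 4 later times, with changes of -2.67, -2.23, -2.41 and -1.06. TBX1 rose at 96 h in growth media (1.80) and at 96 h in differentiation media (1.04), while FOXC2 fell at 48 h in growth media (-2.12) and PITX3 at 48 h in differentiation media (-1.75). At 48 h in growth media 3 rose and 3 fell without siControl replicate 1, with MET at -2.81 and FOXC2 at -2.32. MEOX1 was below background in siControl and at least 1.54-fold higher in siZNF148 at 48 h in differentiation media. The list's median change was 0.65 at 48 h in growth media and between -0.19 and 0.23 in the other comparisons.

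All 15 satellite cell surface and signalling genes were tested, and 2, 7, 4, 5 and 2 rose and 0, 2, 3, 5 and 3 fell. Of all genes, 2.46% to 15.1% rose and 3.08% to 17.3% fell in these knockdown comparisons. NCAM1 and CDH15, adhesion molecules of myogenic cells, rose in growth media by 4.32 and 2.48 at 48 h and by 4.56 and 1.82 at 96 h. ERBB3, a neuregulin receptor, rose by 4.25 and 4.50 at those times, MEGF10 by 2.49 and 1.41, and CD34 by 1.77 at 48 h. Without siControl replicate 1 the rises at 48 h were 5.67 for NCAM1, 3.14 for CDH15, 5.59 for ERBB3, 3.11 for MEGF10 and 2.07 for CD34, so all 5 were called either way. In differentiation media NCAM1 rose by 4.23 at 48 h and 2.20 at 96 h, and ERBB3 by 3.04 and 1.96. There CD34 rose by 3.00 and MEGF10 by 1.30 at 48 h, and neither was called at 96 h (-0.43 and -0.07). CDH15 was not called in differentiation media (0.70 and 0.43). EGFR fell at the 4 later times, with changes of -1.80, -1.97, -1.86 and -2.43. The list's median change was 0.63 at 48 h in growth media and between -0.38 and 0.18 in the other comparisons. Without siControl replicate 1, 7 rose and 3 fell at 48 h in growth media, with EGFR at -1.95. Of the 119 calls over the 4 lists and 9 comparisons, 111 remained with scaling to the 75th percentile, 87 with normexp and 119 with the authors' matrix, and 0 changed sign.

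The members' group means were last set beside each other and beside those of 16212 other genes, as a description over 10 groups that share 1 cell line and 1 set of arrays. TWIST1 and SNAI2 ran together (r = 0.91), as did SIX4 and EYA4 (r = 0.89), and EYA4 ran opposite to TWIST1 (r = -0.93). PAX3 was closer to SNAI2 (r = 0.86) than to TWIST1 (r = 0.74). The genes most like TWIST1 were TFPI, a coagulation inhibitor (r = 0.995), GAS6, a ligand of receptor kinases (r = 0.994), and AGA, a lysosomal enzyme (r = 0.994). MITD1 and C19orf73 were among the genes most like SNAI2, and most like PAX3 were RBIS, ZNF581 and SLX4IP. SIX4 was followed most closely by DBNDD1, SMARCD3 and LINC00526, EYA4 by COLQ, CLEC16A and USF3, and MSC by TEX19, DMD and ATAD2B, where DMD is dystrophin. EYA1 had HSD17B7, FADS2 and BMI1, of which the first makes cholesterol and the next desaturates fatty acids, and PAX7 had PRLH, SH3TC1 and FRAT1 with r of 0.92 at most.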

How the data were processed

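RNA of 29 one-colour arrays in 10 groups was analysed, grouped by the authors' sample labels. Intensities were extracted by the authors with Agilent Feature Extraction 10.7.3.1 per the labels. As deposited, the intensity of a spot is its background-subtracted signal on a linear scale, not scaled between arrays, and a column says whether it is well above background. A second deposited table holds the authors' log2 values, quantile-normalized per the methods, with 140 control probes among them. Each of its 29 columns matched its own array best (correlation across probes at least 0.999998), and its median is near 4.29.

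R 4.3.3 was used, with limma 3.58.1 and the package data.table (1.17.8), and figures were drawn in Python 3.11.15 with matplotlib 3.10.9. From the 62976 spots of an array, outlier spots and the 2075 controls were removed. Signals were put on a log2 scale, averaged per probe (58201 probes) and quantile-normalized together. A probe entered the test if at least 2 arrays had it well above background, which 38714 did. One limma model of 10 group means (lmFit and eBayes, two-sided) was fitted, with Benjamini-Hochberg adjustment over all tested probes in each comparison. Calls needed an adjusted p under 0.05 and a change over 2-fold. Effects were compared as differences of differences. The limma fit was tested on simulated log2 values for knockdown at 24 h and 96 h in growth media. The steps before the fit and the differences of differences were not tested in this way. RefSeq accessions named 31104 probes of 22439 genes, of which 18398 had a tested probe, and a gene was given by its tested probe of highest mean signal. The share of probes well above background ran from 41.5% to 56.5% per array, and the number of arrays limits the precision.

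The members, the 4 lists of relatives, the marker lists and the tests were chosen with earlier results of these data known. Relatives were named where called in a knockdown comparison, at most 6 per list by largest change, and so were the 3 most similar genes of each member by correlation of group means, of which 1 is not reported here. Other genes in the text are members, markers or ZNF148. Gene symbols and promoter sequences are those of RefSeq on GRCh38.p14. As 14 arrays name hg19 in their header and 15 no build, no probe positions are given. Alternatives were another scaling, normexp background correction, the authors' values, other filters, fits to the compared arrays only, a trended robust fit, array weights, replicate and slide blocks, the mean over a gene's probes, no fold threshold, the methods' t-test, and leaving out each array.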

Additional observations from a re-analysis of the deposited data

Results flagged for a closer look

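Knockdown effects on several members differed between times or media, each by a contrast of contrasts in the limma fit. The effect at 48 h less that at 24 h in growth media was -1.132 for PAX3 (adjusted p = 0.00466), 1.107 for EYA4 (adjusted p = 2.82e-06), -2.222 for TWIST1 (adjusted p = 1.36e-09) and -1.306 for SNAI2 (adjusted p = 7.4e-05). At 96 h less 24 h it was -1.476 for PAX3 (adjusted p = 0.000761), 1.043 for EYA4 (adjusted p = 1.07e-05), 1.108 for MSC (adjusted p = 0.0301), -2.341 for TWIST1 (adjusted p = 1.05e-09) and -1.657 for SNAI2 (adjusted p = 8.13e-06). The difference of EYA4 changed sign, from -0.35 at 24 h to 0.75 at 48 h. Time, confluence, slide and scan cannot be told apart in these contrasts. At 96 h less 24 h the calls of MSC and EYA4 were lost with normexp and without some single arrays. Between media, the effect at 48 h in differentiation less that in growth media was -1.703 for PAX3 (adjusted p = 0.000104) and -1.586 for SNAI2 (adjusted p = 6.84e-06). At 96 h it was -1.19 for MSC (adjusted p = 0.0298). The second PAX3 probe did not show the difference, and the mean over both probes gave -0.84, not called. MSC lost its call without any of 5 of the 11 arrays, with normexp and with the slide block. The hours of both media may not count from the same moment.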

How the results depend on the processing

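Of 637 alternative values for single members, 601 kept their direction and call, 36 kept the direction only and 0 reversed. These values cover only changes called in the main fit. Dropping the fold threshold could not lose a call, and the authors' matrix held nearly the same values. Counts of called members moved as follows. Without the fold threshold they were 5 at 24 h and 7 in each of the 4 later knockdown comparisons. Between media they were 5 in siControl at either time, and 4 and 3 in siZNF148 at 48 and 96 h. For the difference of effects between media they were 4 and 3. At that threshold 19.1% and 28.5% of all genes passed between media in siZNF148 at 48 and 96 h. No such share was computed for the other comparisons, so their counts cannot be set against all genes. With normexp the counts were 0 at 24 h, 2 and 3 for the effects at 48 and 96 h less 24 h, and 0 for the difference between media at 96 h. With the mean over a gene's probes, the media counts were 0 and 2 in siControl and 1 and 1 in siZNF148, and those of the differences between media were 1 and 2. With 75th percentile scaling they were 2 in siControl and 1 in siZNF148 between media at 96 h, and the slide block gave 0 for the difference at 96 h.

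Leaving out each array in turn gave 1 to 3 members between media in siControl at 48 h (3 without siControl replicate 1 in growth media) and 1 to 2 at 96 h, 0 to 1 in siZNF148 at either time, 3 to 6 for the effect at 96 h less 24 h, and 0 to 2 for the difference between media at 96 h. Single arrays added MSC between media in siControl at 96 h (without growth replicate 1 or differentiation replicate 2 or 3). In siZNF148 they added SNAI2 at 48 h (without growth replicate 3), TWIST1 at 96 h (without growth replicate 1 or differentiation replicate 2) and PAX7 at 96 h (without differentiation replicate 1). The effect at 96 h less 24 h gave 3 without siControl replicate 2 or siZNF148 replicate 1 at 96 h in growth media, where EYA4 (0.96 and 0.99) and MSC (adjusted p = 0.0908 and 0.0506) lost their calls. Replicate numbers are those of the sample titles. For siZNF148 at 48 h in growth media the sample descriptions number the replicates otherwise. The title numbers did not visibly pair the arrays: over 25 same-numbered pairs, the correlation of deviations from group means ran from -0.146 to 0.124. Whether another numbering would pair them was not tested. With the replicate block the media comparison in siControl at 96 h gave 2 members, adding MSC, and no other count moved past 1.5 times.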
